A study of Oryza sativa with 6 samples.

Results

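This report describes 129 array probes that were detected in wild-type rice seed tissue and in neither of a pair of lines altered in OsMADS29. They were chosen from 42429 probes by the scanner software's own call of a spot as well above background. A probe was taken where at least 0.5 of its spots carried that call on both wild-type arrays and fewer than 0.5 did on each of the 4 line arrays, after outlier spots were left out. The choice used the contrast of the lines with wild type, so every difference along that contrast is a description, and counts of calls from the fit over all probes stand beside the share of all probes called, with nothing read from them.

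The tissue was the nucellar projection at 3 days after flowering, dissected from sections of Oryza sativa seeds with a laser (laser capture microdissection), so that only chosen cells were collected. The 6 arrays fell into 3 groups of 2: A-OsMADS29 line 14, A-OsMADS29 line 2 and wild type, all in the ZH11 background. Plants of all groups grew alike, under a cycle of 12 h light at 26 °C and 12 h dark at 18 °C, and the RNA was amplified in 2 rounds before labelling with Cy3. The labels call the lines OsMADS29 mutants and spell out neither the prefix, the nature of the alteration nor any promoter, nor do they give the number of plants or seeds per sample, so the spread between arrays may be technical in part.

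The nucellar projection is the maternal tissue through which nutrients pass to the developing endosperm, and the nucellus around it is broken down as the seed grows. OsMADS29 is a MADS-box transcription factor of the maternal seed tissues, and the series addresses its part in that breakdown. A microarray probe that falls below the detection call does not show that a transcript is missing, only that its signal was not far enough above the background of that array to pass.

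Between 72.8% and 79.8% of probes were detected on each array and no spot was saturated. Line 14 was alone on its slide, and line 2 shared the other slide with wild type, so line 14 and its slide cannot be told apart. Levels below are percentages of the array's own 75th percentile of signal, and since signal depends on the probe as well as on the transcript, amounts are compared between arrays at the same probe only. OsMADS29 itself (Os02g0170300) was detected on every array, and its 3′ probe read 110% and 97.9% in line 14 and 81.1% and 183% in line 2, against 128% and 181% in wild type. The groups overlapped at that probe, so it does not tell the lines from wild type. OsMADS29 was the one nucellar marker that could be paired with a probe. Markers of endosperm, embryo, pericarp and vascular tissue were not analysed here, since the files pair locus IDs with no gene names.

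The members were few. Of 30356 probes detected on both wild-type arrays, 28451 (93.7%) were detected on all 4 line arrays and 129 (0.425%) on none. A further 330 (1.09%) were detected on exactly 1 line array, which was line 14 replicate 1 for 14 probes, line 14 replicate 2 for 22, line 2 replicate 1 for 69 and line 2 replicate 2 for 225. The mirror set, detected on all 4 line arrays and on neither wild-type array, held 91 probes. Leaving out an array drops a condition of the rule, so the list could only grow, and how far it grew differed between arrays. It was 198 probes without line 2 replicate 1 and 354 without line 2 replicate 2. Without wild-type replicate 1 it was 415, and without wild-type replicate 2 it was 929. Since the tissue was measured in bulk, fewer cells with a transcript and less of it per cell cannot be told apart for any of these probes.

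Of the 129 members, 123 carried IDs of 111 rice loci and 6 were microRNA probes. Sequences labelled as mRNA, called cDNA here, stood behind 85 probes, gene predictions with EST support behind 23 and predictions alone behind 15. Among probes detected on both wild-type arrays, members numbered 0.338 per 100 for cDNA probes, 0.614 for EST-supported predictions, 1.10 for predictions alone and 6.90 for microRNA probes. Predictions alone therefore made up 11.6% of members, against 4.48% of the probes detected on both wild-type arrays. By the chromosome in their locus IDs or, for microRNA probes, in their names, 20 members lay on chromosome 2, or 15.5% of members against 12.2% of the detected probes. Chromosome 10 held 14, or 10.9% of members against 4.78% of the detected probes, and chromosome 9 held 3, or 2.33% against 5.20%. No test was made of these shares.

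The members were dim in wild type. Their median was 0.283% and 0.285% on the line 14 arrays and 0.270% and 0.133% on the line 2 arrays, against 2.04% and 1.43% on the wild-type arrays. In wild type the median of the mean level was 1.72%, against 48.5% for all probes detected on both wild-type arrays. By that mean, 109 of the 129 lay in the lowest 10% of detected probes and 5 lay above the lowest 20%. Over the list the levels ran from 0.214% to 1.24% and 0.207% to 1.31% on the line 14 arrays and from 0.134% to 0.956% and 0.0486% to 0.483% on the line 2 arrays, against 0.607% to 21.5% and 0.304% to 33.6% on the wild-type arrays. The lower end of the wild-type range thus reached into the range of the lines.

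The detection floor, meaning the lowest signal of any spot flagged well above background, was not the same on all arrays. It stood at 1.07% and 1.03% on the line 14 arrays, 0.678% and 0.242% on the line 2 arrays, and 0.648% and 0.473% on the wild-type arrays. A level between the wild-type and line 14 floors was thus detectable in wild type and lay under every detected spot of line 14. Only 68 of the 129 members had both wild-type levels above the highest line floor, and 61 did not. The 68 comprised 50 cDNA, 11 EST-supported and 7 prediction probes and none of the microRNA probes. Of the 68, cDNA probes made up 73.5% and predictions alone 10.3%. Among all probes detected above that floor on both wild-type arrays, the shares were 83.7% and 4.19%. Chromosome 10 held 7 of the 68, or 10.3% against 4.75%, and chromosome 9 none, against 5.22%. These shares were not tested either. A stricter line, the brightest undetected spot on any line array at 2.04%, was passed on both wild-type arrays by 27 members.

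The second flag of the scanner software, which asks only that a spot be positive and significantly above background, gave another picture. By that flag 120 of the 129 members were present on at least 1 line array, 33 were present on all 4, and 9 were present on none. Per array, the flag was set for 65 and 67 members in line 14 and for 84 and 92 in line 2. These counts were not made over all probes or over equally dim ones, so they are not read as a trait of the members. Detection in wild type alone is thus a statement about the stricter flag.

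Where a probe was not well above background on any line array, its fold is a bound. The wild-type mean was divided by the mean of the lines, after each line array was raised to its own detection floor where it lay lower. Means were taken of log2 values. The bound covers line signal under the floor and not the spread between the wild-type arrays. Where a fold is given as at least a value, it refers to the wild-type mean, and a single wild-type array can give less. The bound was above 4-fold for 31 members and above 10-fold for 7, with a median of 2.52-fold and a highest value of 26.7-fold. For 5 members it was under 1, so no fold is given for them. With the floor taken from the lowest mean of a detected probe in place of the lowest spot, an alternative added after seeing the data, the bound was above 4-fold for 77 members, above 10-fold for 16 and under 1 for none, with a median of 4.46-fold and a highest value of 47.1-fold. Both wild-type levels were above all 4 line levels at 119 of the 129 members, which the choice of members largely fixes. Over all 32357 probes with a value on every array and kept for testing, that ordering held for 8.38%.

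The brightest members formed a small group of loci with clear gaps. The first in rank was the predicted gene Os08g0559800, which the array covers with a pair of probes, both of them members. Its first probe read 0.226% and 0.211% in line 14 and 0.638% and 0.0555% in line 2, against 21.5% and 14.1% in wild type. The second read 0.283% and 0.276% in line 14 and 0.256% and 0.0827% in line 2, against 12.9% and 7.60% in wild type. The pair gave bounds of at least 26.7-fold and at least 15.2-fold lower in the lines, and no line array came near a wild-type array at either probe.

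The EST-supported prediction Os06g0687100 ranked next, with 0.912% and 0.258% in line 14 and 0.742% and 0.0768% in line 2, against 13.3% and 13.9% in wild type. Its wild-type arrays nearly coincided, and the lines were at least 20.4-fold lower. Os03g0288000 is a cDNA-supported locus. It read 0.411% and 0.663% in line 14 and 0.772% and 0.339% in line 2, against 10.9% and 33.6% in wild type. By the wild-type mean the lines were at least 26.2-fold lower. Its wild-type arrays stood further apart than those of the preceding loci, and replicate 1 alone would give a smaller fold.

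Os03g0195100, another cDNA-supported locus, read 0.261% and 0.227% in line 14 and 0.181% and 0.0619% in line 2, against 15.5% and 10.2% in wild type. That is at least 19.3-fold lower, and the line arrays were close together beside the distance to wild type. The prediction Os02g0108600 followed, with 0.272% and 0.267% in line 14 and 0.207% and 0.0948% in line 2, against 6.38% and 9.54% in wild type, at least 12.0-fold lower. At Os06g0633300 the line 14 arrays read 0.980% and 0.743% and the line 2 arrays 0.456% and 0.191%, against 6.24% and 9.24% on the wild-type arrays. The bound there was 11.7-fold, and 7 probes of these 6 loci are the ones whose bound passed 10-fold.

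Below them the gaps narrowed. Os01g0871800 read 0.238% and 0.384% in line 14 and 0.180% and 0.0696% in line 2, against 6.82% and 5.12% in wild type, at least 9.08-fold lower. Os02g0762900 read 0.730% and 0.869% in line 14 and 0.169% and 0.173% in line 2, against 5.88% and 4.38% in wild type, at least 7.80-fold lower. The line 14 arrays of Os02g0762900 were both above its line 2 arrays, and all 4 were below the wild-type arrays. Os10g0535600 read 0.410% and 0.910% in line 14 and 0.272% and 0.183% in line 2, against 4.09% and 4.90% in wild type, at least 6.88-fold lower.

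The other members among the first 20 gave bounds between 4.18-fold and 7.07-fold. They were Os12g0116700 (6.03-fold), Os10g0105800 (7.03-fold), Os02g0307900 (7.05-fold), Os01g0191300 (4.76-fold), Os06g0216300 (4.18-fold) and Os10g0198900 (4.85-fold), with a pair of probes each from Os12g0175400 (7.07-fold and 5.85-fold) and Os04g0107900 (6.28-fold and 5.88-fold). Os06g0216300 had the tightest groups of these, with 0.244% and 0.229% in line 14 and 0.280% and 0.246% in line 2, against 2.77% and 2.69% in wild type. At Os12g0175400 and Os04g0107900 wild-type replicate 1 was above 2-fold over replicate 2 at every one of these probes. All 4 line arrays stayed under 1% at each of the 20 probes, and both wild-type arrays were above 2%. Os01g0191300 was nevertheless detected in both lines through its 3 other probes, with log2 differences of -1.99 to -1.90.

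The edge of the rule was gradual. The last 3 in rank were the microRNA probes osa-miR156k 5′ flank, osa-miR156b mature and osa-miR156k mature. Just outside it, Os01g0680200 read 0.281% and 0.307% in line 14 and 0.225% and 2.44% in line 2, against 40.4% and 27.6% in wild type. Os11g0490100 read 1.55% and 0.268% in line 14 and 0.200% and 0.170% in line 2, against 28.5% and 14.6% in wild type. Os04g0538300 read 0.219% and 1.06% in line 14 and 0.138% and 0.0499% in line 2, against 17.3% and 7.68% in wild type. Each of these 3 was detected on a single line array and so is no member.

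Wild-type replicates differed at many members. They lay more than 2-fold apart at 62 of the 129 (48.1%), against 21.6% of all probes detected on both wild-type arrays. Among 1545 such dim probes outside the list the share was 50.8%. These dim probes had a mean wild-type level within the members' interquartile range, so they match only the middle of the members in brightness. Replicate 1 was the higher at 85 members (65.9%), against 56.9% of those dim probes and 50.8% of all detected probes. Os04g0545000 was an example noted after its values were seen, with 0.247% and 1.10% in line 14 and 0.181% and 0.0840% in line 2, against 14.3% and 1.53% in wild type. At that locus wild-type replicate 2 stood nearer to a line 14 array than to the other wild-type array.

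The fit across all 32420 probes kept, made with limma, called 22 (0.0679%) lower in both lines together at a Benjamini-Hochberg adjusted p under 0.05, and 8 of the 22 were members. The members were chosen on that contrast, so nothing is read from the 8. Their number was 10 without wild-type replicate 2, 0 without any other single array and 0 in a fit of line 2 and wild type alone, which share a slide. In the same fit the contrast of line 14 with wild type called 0.0185% of probes lower and no member, with 92 members and 2234 of all probes at an unadjusted p under 0.05. The contrast of line 2 with wild type called 0% of probes lower, with 117 members and 2086 of all probes at an unadjusted p under 0.05. These counts too fall on the contrast that chose the members, and nothing is read from them. The median fitted log2 difference of the members was -2.78 for both lines, -2.28 for line 14 and -3.17 for line 2, against 0.02 over all probes for both lines together. Both single-line contrasts share the wild-type arrays. These fitted values rest on line signals near background and are no measure of true size.

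The contrast of line 14 with line 2 did not choose the members, but the rule held each line array below its own detection call, and the floors of line 14 were the higher. Values of the members along it are therefore a description too. The members' fitted difference, line 14 minus line 2, had a median log2 value of 0.86 and was above 0 at 116 of 129, against a median of 0.00 over all probes. The highest line signal was on a line 14 array at 95 members and on a line 2 array at 34. Neither count was made over equally dim probes, so nothing is read from them. The limma test called no member and 0% of all probes different between the lines, with 18 members and 1111 of all 32420 probes below 0.05 before adjustment. Among members the lowest adjusted value, by limma, was that of Os02g0762900, at 0.621. Every line array lay below its detection floor at that probe, so no size of the difference is given. The median of 0.86 was 0.10 after quantile normalization, 0.33 without line 2 replicate 2 and 1.59 without line 2 replicate 1. Line 2 replicate 2 had the lowest floor of all arrays, at 0.242%, and the part of the floors in the difference between the lines was not tested.

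Other probes at the same loci gave a second readout of the same genes. The array covers 71 of the 111 loci with 1 probe each and 40 with several. At 5 of the 40 every probe was a member: Os08g0559800, Os10g0323900, Os11g0245100, Os11g0512100 and Os12g0175400. The pairs at Os11g0245100 and Os11g0512100 each came from the same source sequence. The remaining 35 loci had 56 further probes, of which 19 were detected on all 6 arrays, 27 on some and 10 on none. For the 36 of these that were kept for testing, the median log2 difference was -1.51, against 0.02 over all probes. Of the 36, 8 passed the filter through the wild-type arrays alone and 2 through line arrays alone, which favours lower values in the lines, so nothing is read from that median. The 19 probes belonged to 14 loci, which were thus detected in both lines through another probe. These are not all such loci, since probes that missed the call on some array are not among the 19. Both other probes of Os03g0667100, for example, were detected on all 4 line arrays.

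More than 1 member probe was found at 10 loci. Os04g0107900 had 3, and its probes outside the list separated the groups as well. The first of those read 4.11% and 5.39% in line 14 and 2.46% and 1.67% in line 2, against 60.6% and 19.2% in wild type. The second read 8.28% and 8.91% in line 14 and 3.58% and 2.22% in line 2, against 89.4% and 31.0% in wild type. They were detected on all 6 arrays and gave log2 differences of -3.47 and -3.42, so the locus was detected in both lines through these probes, at a lower signal.

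Os03g0288000 was alike. Its other probe read 3.26% and 4.31% in line 14 and 4.82% and 4.74% in line 2, against 32.9% and 135% in wild type, a log2 difference of -3.98. The line arrays were close together and the wild-type arrays far apart, as at the member probe. At Os02g0703300, with a pair of member probes, the third probe read 0.223% and 0.218% in line 14 and 0.346% and 0.317% in line 2, against 8.77% and 4.65% in wild type. At Os06g0633300 the other probe read 0.961% and 1.62% in line 14 and 0.981% and 0.329% in line 2, against 8.87% and 11.3% in wild type. All 4 line arrays were below both wild-type arrays at each of these probes.

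Os03g0857900 also had 3 member probes, with bounds of 3.60-fold, 2.37-fold and 1.84-fold. Its remaining probe read 1.45% and 0.885% in line 14 and 2.81% and 1.17% in line 2, against 10.2% and 3.59% in wild type. The member pairs had bounds of 3.99-fold and 3.81-fold at Os05g0530400, 4.18-fold and 2.29-fold at Os06g0216300, and 2.68-fold and 2.01-fold at Os10g0323900. At Os02g0703300 the higher of the pair was 3.80-fold. They were smaller at Os11g0245100 (1.87-fold and 1.74-fold), where the arrays of the groups overlapped at 1 probe, and at Os11g0512100 (2.17-fold and 1.60-fold). At Os05g0530400 the wild-type arrays stood apart, since the pair of member probes read 6.48% and 6.56% there and 1.04% and 1.11% on replicate 2, while line 2 replicate 1 reached 0.956%. A further probe of that locus read 0.573% and 1.16% in line 14 and 1.62% and 0.266% in line 2, against 5.54% and 3.90% in wild type. Another read 0.445% and 1.05% in line 14 and 1.65% and 0.322% in line 2, against 4.19% and 3.09% in wild type. At both of these the 2 wild-type arrays were above all line arrays.

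At some loci the probes disagreed, and the examples here were noted after their values were seen. The member probe of Os01g0276700 read 0.913% and 1.04% in line 14 and 0.452% and 0.109% in line 2, against 3.67% and 2.16% in wild type. The 3 other probes of that locus were among the bright ones, between 98.1% and 814% over all arrays, and differed by log2 values of only -0.04 to 0.15. At Os02g0317700 a pair of other probes differed by 0.08 and 0.13, and at Os05g0121700 the other probe was higher in the lines by 0.39. Both other probes of Os03g0667100 were detected on all 4 line arrays and on wild-type replicate 2 only, with log2 differences of 0.96 and 1.40. The first of them read 4.37% and 2.25% in line 14 and 1.39% and 3.98% in line 2, against 0.237% and 8.27% in wild type, so that the wild-type arrays lay on either side of the lines. At Os12g0102300, whose member probe was among the 8 called, the other probe was detected on all 6 arrays and differed by -0.26. The member probe alone therefore does not stand for the gene at these loci. The array files hold no probe sequences and do not say which transcript or exon each probe meets.

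Over the 19 probes detected on every array, the log2 difference had a median of -0.66 and ran from -3.98 to 0.39. It was below -1 at 8 and within 1 of 0 at 11. At Os01g0871800 and Os10g0525000 the reverse held, since their other probes were detected on no array, in wild type or in the lines. At Os10g0558700 this was so for 3 of the 4 other probes.

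The 6 microRNA probes came from 4 families. In plants miR156 directs the cleavage of transcripts of SPL transcription factors, miR164 of NAC transcription factors, miR396 of growth-regulating factors, and miR399 of the phosphate-signalling gene PHO2. The members were mature probes of osa-miR156b, osa-miR156k, osa-miR164a and osa-miR399a, and probes of the 5′ flank of osa-miR156k and the 3′ flank of osa-miR396a. Each had 2 spots, and on wild-type replicate 2 only 1 of the 2 was well above background at all 6 probes. They were the only members with more than 1 spot, and none of the 6 was a member when every spot was required.

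Their signals were close to background in wild type too. The mature probe of osa-miR156b read 0.260% and 0.228% in line 14 and 0.188% and 0.0744% in line 2, against 0.724% and 0.313% in wild type. The mature probe of osa-miR156k read 0.268% and 0.304% in line 14 and 0.265% and 0.205% in line 2, against 0.914% and 0.304% in wild type. Its second wild-type array was level with a line 14 array.

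The mature probe of osa-miR164a read 0.230% and 0.219% in line 14 and 0.154% and 0.0578% in line 2, against 0.625% and 0.404% in wild type. The mature probe of osa-miR399a read 0.499% and 0.249% in line 14 and 0.174% and 0.200% in line 2, against 0.607% and 0.450% in wild type, so its groups overlapped. Both wild-type arrays of osa-miR164a were above the line arrays, yet below every line 14 floor. The 3′ flank of osa-miR396a read 0.365% and 0.251% in line 14 and 0.240% and 0.0693% in line 2, against 1.71% and 0.451% in wild type. The 5′ flank of osa-miR156k read 0.225% and 0.219% in line 14 and 0.160% and 0.246% in line 2, against 1.24% and 0.404% in wild type. For these flanks the bounds were 1.35-fold and 1.08-fold, and for the 4 mature probes no fold could be given.

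Wild-type replicate 1 stood apart for mature microRNA probes as a class. Of 170 such probes, 25 and 21 were detected on the line 14 arrays, 20 and 36 on the line 2 arrays, and 60 and 31 on the wild-type arrays. Wild-type replicate 1 was also the array with the most mature probes detected in the families miR156, miR164 and miR399, and not in miR396. For miR156 the counts of 11 mature probes were 2 and 0 in line 14 and 1 and 0 in line 2, against 8 and 2 in wild type. For miR164 the counts of 6 were 0 and 0 in line 14 and 0 and 2 in line 2, against 6 and 1 in wild type. For miR399 the counts of 11 were 2 and 1 in line 14 and 1 and 2 in line 2, against 7 and 2 in wild type. Wild-type replicate 2 was within the range of the line arrays for all mature probes together. The part of replicate 1 in the microRNA members was not tested.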

How the data were processed

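The arrays were 1-colour, of Agilent design 15241. Per the file headers, their scans were read by Feature Extraction 10.7.3.1, which left the authors with a linear intensity per spot, after subtraction of background and without scaling between arrays. The deposited flags, other values of 0 or 1 per spot, mark spots well above background, positive and significant spots, outliers and saturation. The value table deposited beside them holds log2 values, with a median of 10.4 in all 6 columns, and each column correlated with its array's log2 signal at 0.998 or more. Its method was not given in the sources used here.

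Of 45151 spots, 1417 controls were left out, as were spots flagged as non-uniform or population outliers (at most 0.113% per array). A probe's value was the mean over its spots of the log2 signal less that of the array's 75th percentile. Probes detected on both arrays of at least 1 group (32420) were fitted together with limma 3.58.1 (R 4.3.3), using 3 group means, 3 residual and 2.40 prior degrees of freedom, and Benjamini-Hochberg adjustment at 0.05. On simulated data for both lines minus wild type, over 32357 probes, this recovered 18.7% of falls of 2 on the log2 scale. It recovered 71.3% of falls of 4, 92.7% of falls of 6 and 91.3% of falls of 8. The falls were placed in probes drawn at random, with normal noise and no background or floor. Most members lie near background, so these rates do not apply to them. With 2 arrays per group, precision is low.

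The members, the lists and the rule for named probes were chosen with earlier results of these data known. That rule took the first 20 members in rank of lowest wild-type over highest line signal (raised to the floor), loci with 2 or more member probes, microRNA members, the last 3 and the nearest 3 outside. The reference table of 39387 genes matched 0 of the members' 225 IDs and accessions, so no gene could be named and the functional and marker lists could not be formed. Normexp used the median spot signal, as the files hold no mean.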

Additional observations from a re-analysis of the deposited data

How the results depend on the processing

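Against 129 probes, the list held 123 when every spot was required, 133 with outlier spots kept, 199 by the flag for positive and significant spots (9 of them shared), 5 when wild type had to be 16-fold over its floor, and 143 to 929 with 1 array left out. Alternatives added after seeing the data gave 68 with wild type above the highest line floor. They gave 707 for line 14 against wild type and 168 for line 2 against wild type, the same slide. With an array or a line left out, a condition of the rule was dropped, so the list could only grow. The 8 members among 22 probes called lower in both lines became 15 of 28 with quantile normalization and 16 of 30 with the authors' table. With normexp they were 5 of 41, so the calls over all probes rose while those of members fell. The number was 1 of 20 with an intensity trend, and 0 with no filter on dim probes, where 0 of all probes were called lower. It was also 0 with line 2 or line 14 alone against wild type. With 1 array left out it was 0 to 10 (10 without wild-type replicate 2, 0 otherwise). The setting with slide as a block gave 0 too, but its values were those of line 2 minus wild type in the main fit. Slide cannot be told apart from line 14, so that setting is no separate check of both lines together. All-probe calls were 22 lower and 23 higher, and 39 lower and 216 higher without wild-type replicate 2. Replicate numbers were not treated as pairs in the main fit. Deviations from the group means correlated at 0.0490 to 0.0705 between groups, which does not settle whether the samples were paired. With the replicate block 0 members and 0 probes were called. The members' median of -2.78 was -0.99 with normexp, -2.28 with only line 14 and wild type, and -3.11 to -2.32 with 1 array left out. Their median for line 14 minus line 2, 0.86, was 0.10 with quantile normalization and with the authors' table, 0.046 with normexp, and 0.33 to 1.59 with 1 array left out. The other probes' median of -1.51 was -0.95 with normexp. Causes were not tested. Of 677 values for 41 named members under 17 alternatives, 596 stayed within the spread between replicates and 81 moved beyond it. Their sign was fixed by the choice of members. Some alternatives leave a fitted difference as it was: no filter on dim probes, the brightest probe per locus, the intensity trend and the replicate block. The 596 thus include values that could not move, and their share is no measure of stability. With the floor taken over probe means in place of spots, added after seeing the data, the fold bounds were higher by a median factor of 1.76. Signal over background is the main limit, since most members lie near it.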

Other observations

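Members formed 2 pairs that were neighbours in locus order, with no other locus of the array between them. On chromosome 5, Os05g0468200 read 0.755% and 0.220% in line 14 and 0.154% and 0.0543% in line 2, against 1.00% and 3.07% in wild type. Os05g0468400 beside it read 0.278% and 0.274% in line 14 and 0.844% and 0.0880% in line 2, against 5.78% and 1.72% in wild type. The higher wild-type array was replicate 2 at the first and replicate 1 at the second. On chromosome 10, Os10g0198900 read 0.248% and 0.226% in line 14 and 0.198% and 0.0723% in line 2, against 4.34% and 2.30% in wild type. Os10g0199500 read 0.278% and 0.328% in line 14 and 0.179% and 0.0622% in line 2, against 2.57% and 0.854% in wild type. Here replicate 1 was the higher at both loci.

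Arrays also differed in how many probes they alone detected. The counts were 181 and 102 on the line 14 arrays, 207 and 817 on the line 2 arrays, and 801 and 286 on the wild-type arrays. Line 2 replicate 2 and wild-type replicate 1 thus stood above the other 4.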
